A study of Mus musculus with 4 samples.

Results

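The subunits of the transcription factor NF-Y, encoded by Nfya, Nfyb and Nfyc, were examined in 32Dcl3-Abl1ko cells growing with or without interleukin-3 (IL-3). The 3 genes were taken by symbol from the 23756 genes of the deposited table. Nfya was chosen because it lay far lower in both libraries without IL-3, so its values are given as a description with no test, and Nfyb and Nfyc were taken as its partners. All 3 genes passed the filter on low counts, as did 16535 genes in all.

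NF-Y is a trimer that binds the CCAAT box, a short element found upstream of many genes. NF-YB and NF-YC pair through histone folds, and NF-YA joins this pair and contributes the part that reads CCAAT, so that DNA binding needs all subunits. The factor is known for acting at promoters of cell cycle, sterol and fatty acid synthesis, endoplasmic reticulum (ER) chaperone and MHC class II genes, and for a role in hematopoietic stem cells.

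32Dcl3, given as 32D in the labels, is a murine bone marrow line whose growth depends on IL-3. Both groups were edited in Abl1, a tyrosine kinase gene, with CRISPR/Cas9: Abl1ko/IL3+ cells were kept with IL-3, and Abl1ko/IL3- cells had lost the need for it after gradual withdrawal. Each group had 2 libraries of RNA depleted of ribosomal RNA, described as biological duplicates. The comparison set IL-3-independent cells growing without IL-3 against cells kept with it. The knockout cells came from more than 1 guide and the IL-3-independent cells grew out as clones, but the labels do not tie libraries to guides or clones, so p-values measure only the spread between these samples. Lack of IL-3, selection during withdrawal and differences between clones or guides cannot be told apart in these groups. Unedited 32Dcl3-Abl1 cells with IL-3 were not analysed here.

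The libraries held 48953174 to 60382588 counts. Across genes, the Pearson correlation of log2 CPM, counts scaled to library size, was 0.911 between the Abl1ko/IL3+ libraries and 0.944 between the Abl1ko/IL3- libraries, against 0.896 to 0.926 between groups. Abl1 had 1322 and 2222 counts with IL-3, against 1544 and 2256 without, so the counts do not show the edit. The labels call the cells pre-B, whereas Mpo, a myeloid granule enzyme, stood at 1879 and 1477 CPM with IL-3 and 908 and 499 without. Of the other listed myeloid precursor markers, Prtn3, Ctsg, Cebpa and Spi1 lay between 49.6 and 263 CPM. Elane lay between 2.24 and 5.59 CPM, Csf3r between 0 and 0.775 CPM, and Kit had 0 to 4 counts. The surrogate light chain genes Vpreb1 and Igll1, which define pre-B cells, lay between 0.884 and 3.28 CPM and between 0.207 and 0.884 CPM. The recombinase gene Rag1 had 0 to 4 counts, and the B-cell receptor chain genes Cd79a and Cd79b lay between 0.667 and 11.7 CPM and between 11.2 and 16.2 CPM. Pax5 and Ebf1 were not analysed here.

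Sequences before start sites of the subunit genes are shown first, because NF-Y is defined by the CCAAT box and because the start of Nfya is shared with a neighbour. They come from RefSeq promoter windows on the GRCm38.p6 build, each with 250 bases before and 50 after a start site, and are printed 5′ to 3′ on the strand of the gene. Capitals mark CCAAT or its reverse complement ATTGG. The Nfya sequence is the stretch between Nfya and the divergent gene Oard1 (chr17:48409907-48410013, minus strand). The Nfyb sequence lies directly before the gene (chr10:82764145-82764391, minus strand). The Nfyc sequence precedes the second of its start sites (chr4:120825210-120825459, minus strand), which lies inside the gene bounds used here and not at their edge.
Nfya: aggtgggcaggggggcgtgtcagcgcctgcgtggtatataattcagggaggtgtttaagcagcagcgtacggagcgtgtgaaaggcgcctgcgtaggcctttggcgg
Nfyb: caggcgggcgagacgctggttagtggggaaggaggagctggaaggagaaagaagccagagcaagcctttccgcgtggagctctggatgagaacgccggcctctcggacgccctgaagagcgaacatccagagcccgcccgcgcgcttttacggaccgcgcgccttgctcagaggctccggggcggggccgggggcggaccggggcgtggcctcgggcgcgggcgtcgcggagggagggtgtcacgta
Nfyc: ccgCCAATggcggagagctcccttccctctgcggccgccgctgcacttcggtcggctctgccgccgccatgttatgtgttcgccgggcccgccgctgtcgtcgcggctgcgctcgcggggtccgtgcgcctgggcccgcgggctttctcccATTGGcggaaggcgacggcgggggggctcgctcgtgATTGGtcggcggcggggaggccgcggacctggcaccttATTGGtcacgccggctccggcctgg

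The stretch before Nfya held 0 copies of CCAAT, with a G and C content of 61.7%, and the stretch before Nfyb likewise held 0. The Nfyc stretch held 4 copies, and the whole 300-base window held 5. Of 32851 mouse windows of this length, 37.4% held at least 1 copy on either strand and 0.271% held 5 or more. The other Nfyc windows held 0 and 3 copies, and a window at an internal start site of Nfya held 1. These counts describe letters only and do not show binding.

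Nfya encodes the DNA-reading subunit and spans chr17:48386885-48409906 on the minus strand of GRCm38 (ENSMUSG00000023994). It had 5167 and 5809 counts with IL-3 and only 160 and 188 without. Both libraries without IL-3 were low and near each other, and the groups did not overlap. In FPKM, the deposited unit that scales fragments to gene length and library depth, Nfya was at 10.5 and 11.7 with IL-3 and at 0.381 and 0.405 without. The means were 11.1 ± 0.828 and 0.393 ± 0.0176 FPKM (SD, n = 2 each). Nfya transcripts were therefore present in all libraries, but without IL-3 at 3.52% of the mean CPM with IL-3, a difference of 28.4-fold.

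On the log2 scale of the edgeR fit, the difference of Nfya was -4.83 (standard error 0.38). Leaving out each library in turn gave -5.01 to -4.60. The lowest library with IL-3 exceeded the highest without it by 24.0-fold in CPM, and 49 of the tested genes, 0.296%, were lower by a gap of at least 20-fold. Of these, 39 had no count in either library without IL-3, and Nfya ranked 9 among the rest. Nfya was chosen for this difference, so its place among the genes is only a description. Among the tested genes Nfya stood at percentiles 73.6 and 77.5 of FPKM with IL-3 and at percentiles 21.3 and 19.7 without. In a bulk sample, fewer cells that express a gene and less RNA per cell cannot be told apart.

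Nfyb encodes one of the histone-fold subunits and spans chr10:82748701-82764144 on the minus strand (ENSMUSG00000020248). It had 3348 and 3007 counts with IL-3, against 2169 and 2788 without. Scaled to library composition by edgeR's TMM method, these were 51.9 and 55.3 CPM with IL-3 and 45.3 and 48.0 CPM without. The groups did not overlap in CPM, where 17.9% of tested genes lay lower in this way. They overlapped slightly in FPKM, at 9.85 and 8.74 with IL-3 and 7.63 and 8.76 without. The log2 fold change was -0.20 (standard error 0.30, adjusted p = 0.969 by the quasi-likelihood test of edgeR, with p-values adjusted over all tested genes). The difference was smaller than its error.

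Nfyc encodes the other histone-fold subunit and spans chr4:120757438-120831572 on the minus strand (ENSMUSG00000032897). It had 1763 and 2115 counts with IL-3, against 2070 and 1711 without, or 27.4 and 38.9 CPM against 43.2 and 29.5 CPM. The libraries of the groups interleaved. The log2 fold change was 0.13 (standard error 0.39, adjusted p = 0.986 in edgeR), and its sign turned without Abl1ko/IL3+ replicate 1 (-0.085) or without Abl1ko/IL3- replicate 1 (-0.17). The gene body also holds Mir30c-1 and Mir30e on the same strand and Mir30f on the other, none of which shares exon bases with it.

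**Figure D1:**
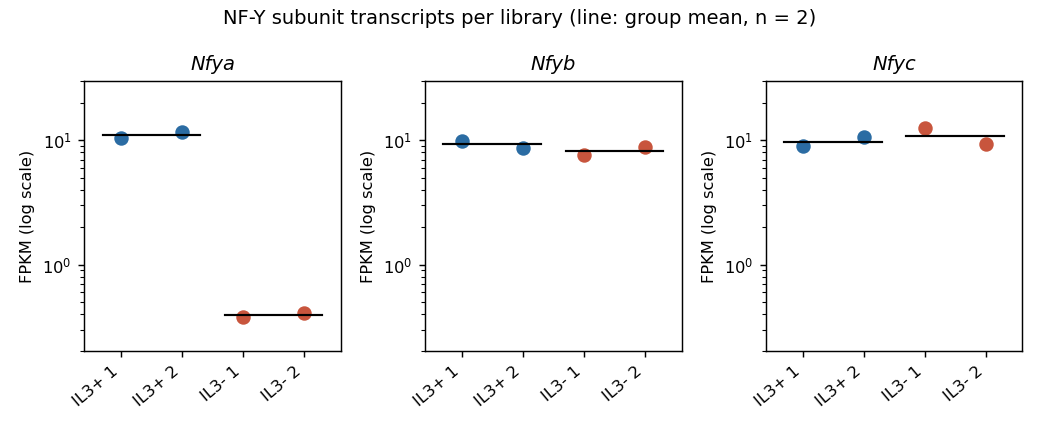
Deposited FPKM (log axis) of Nfya, Nfyb and Nfyc in each library of Abl1ko/IL3+ and Abl1ko/IL3- cells, with a line at each group mean (n = 2). Nfya goes from 10.5 and 11.7 to 0.381 and 0.405, while all Nfyb and Nfyc values lie between 7.63 and 12.6.

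Compared per length, the 3 subunits were expressed at similar levels with IL-3 and not without it. Nfya FPKM was 1.07 and 1.34 times Nfyb FPKM with IL-3, and 0.0499 and 0.0463 times without. Against Nfyc it was 1.18 and 1.11 times with IL-3 and 0.0303 and 0.0438 times without. The ratio between the histone-fold partners moved little beside these. Nfyb over Nfyc was 1.10 and 0.825 with IL-3 and 0.608 and 0.947 without, a log2 difference of -0.33 with SDs of 0.30 and 0.45. The log2 difference was -4.64 for Nfya over Nfyb and -4.97 for Nfya over Nfyc.

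In order of FPKM, the group means with IL-3 were 11.1 ± 0.828 for Nfya, 9.75 ± 1.18 for Nfyc and 9.29 ± 0.786 for Nfyb (SD, n = 2). In Abl1ko/IL3+ replicate 1 Nfyb stood above Nfyc, so these neighbours in the order do not differ beyond their spread. Without IL-3 the means were 10.9 ± 2.33 for Nfyc, 8.20 ± 0.799 for Nfyb and 0.393 ± 0.0176 for Nfya (SD, n = 2). Nfya was the last of the order in each library without IL-3 and the first in each library with it. Of the FPKM summed over the subunits, Nfya made up 35.9% and 37.7% with IL-3 and 1.85% and 2.20% without. The sum itself was 29.3 and 31.0 FPKM with IL-3 and 20.6 and 18.4 FPKM without.

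**Figure D2:**
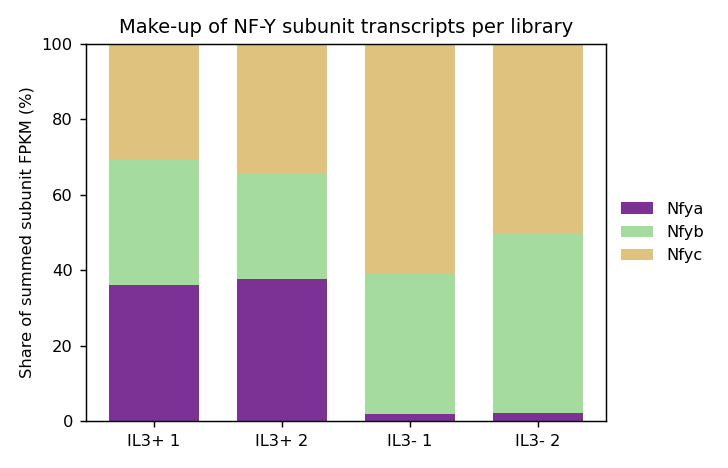
Share of each subunit in the FPKM summed over Nfya, Nfyb and Nfyc (%, stacked bars), for each library. Nfya takes 35.9% and 37.7% of the bars with IL-3 and 1.85% and 2.20% of those without, and Nfyc takes 50.2% or more of the bars without.

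The neighbours of Nfya were measured beside it. Within 100 kb of Nfya lay 9 genes, of which 8 were tested, and 0 passed the adjusted threshold, as did 0.0% of all genes in edgeR (5.91% had an unadjusted p under 0.05). Oard1, an ADP-ribose hydrolase gene that starts head to head with Nfya across 107 bases, had 1760 and 2156 counts with IL-3, against 2328 and 2413 without. Its libraries without IL-3 were the higher ones in CPM, as for 19.4% of tested genes, and the log2 fold change was 0.43 (standard error 0.36, adjusted p = 0.920 in edgeR). Treml2, a myeloid and lymphoid surface receptor gene beyond the other end of Nfya, had 17692 and 15892 counts with IL-3, against 15522 and 14879 without.

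The remaining neighbours of Nfya were low or uneven. Apobec2, of the cytidine deaminase family, had 40 and 737 counts with IL-3, against 78 and 55 without, and Tspo2 had 12 and 1373 against 278 and 168. Trem2, a receptor of macrophages, had 0 and 0 counts with IL-3, against 16 and 99 without. Unc5cl, AC166164 and Treml1 had at most 42 counts in any library, and B430306N03Rik had 285 to 1209.

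Near Nfyb, 5 of 7 genes were tested, and near Nfyc, 3 of 6. Hcfc2, next to Nfyb, had 1333 and 1346 counts with IL-3, against 1417 and 1846 without (log2 fold change 0.43, adjusted p = 0.919 in edgeR). Txnrd1, a thioredoxin reductase gene, had 5179 and 3717 counts with IL-3 but 442 and 5743 without, so the libraries without IL-3 disagreed. Zfp69, a zinc finger gene near Nfyc, had 35 and 40 counts with IL-3, against 190 and 199 without. Its log2 fold change was 2.53 (standard error 0.57, adjusted p = 0.727 in edgeR). Exo5, a DNA exonuclease gene, had 687 and 426 counts with IL-3, against 962 and 815 without.

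**Figure D3:**
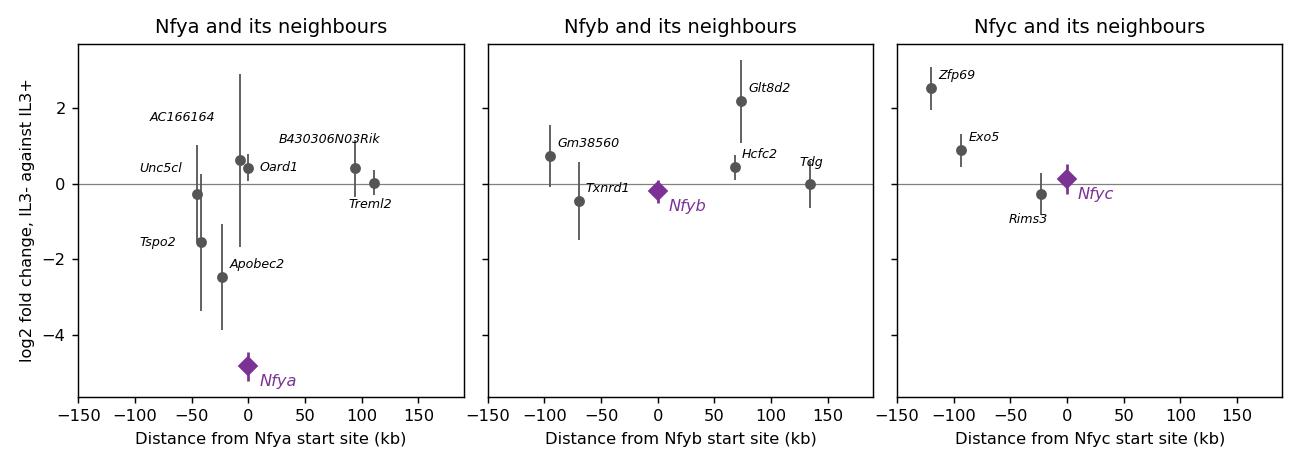
Log2 fold change of IL3- against IL3+ (edgeR, bars ± 1 standard error) of each subunit gene (diamonds) and of its tested neighbours (circles), placed by the distance between start sites in kb (positive values lie downstream of the subunit's start). Nfya stands at -4.83 while Oard1 beside it stands at 0.43, and Trem2, with no counts with IL-3, is not drawn.

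The genes that NF-Y works with, resembles or is known to act on were grouped in 7 lists of 61 genes, of which 56 were tested. Of these, 0 passed the adjusted threshold in edgeR (background 0.0%), and 6 of the 56 had an unadjusted p under 0.05, beside 5.91% of all tested genes. Their log2 fold changes were above 0 for 19 and below 0 for 37, with a median of -0.14 against -0.027 for all genes. In 15, or 26.8%, both libraries without IL-3 lay below both with IL-3, beside 17.9% of all genes, and in 7, or 12.5%, they lay above, beside 19.4%. DESeq2's Wald test called 3 of the 56, beside 1.64% of all genes. These were Hmgcs1 and Fdft1, which were lower (0.968% of all genes), and Creb1, which was higher (0.671%). The lists were chosen with earlier results of these data known, so their counts and shares are no independent result.

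**Figure D4:**
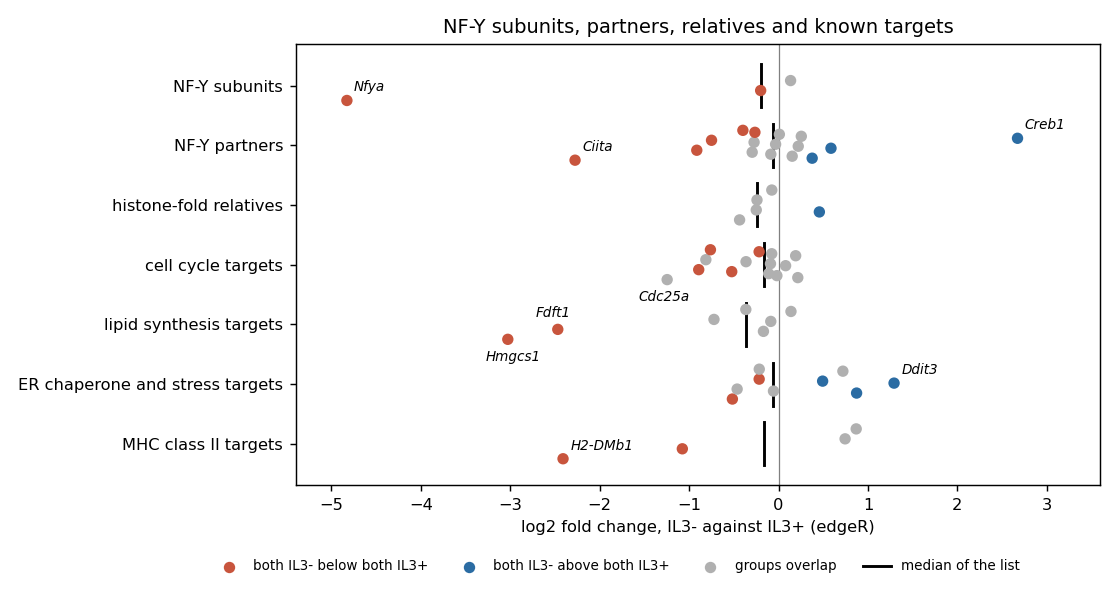
Log2 fold change of IL3- against IL3+ (edgeR) of each tested gene of the subunit set and 6 lists, coloured by whether the CPM of the groups overlap, with a bar at the median of each list. Nfya, which was chosen for being low without IL-3, lies at -4.83. The listed partners, relatives and targets run from -3.03 for Hmgcs1 to 2.67 for Creb1.

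Among 16 partners, which are factors that bind beside NF-Y or co-activators it recruits, 7 lay above 0 and 9 below, with a median of -0.06. Creb1, a factor that binds cyclic AMP response elements and meets NF-Y at MHC class II promoters, had 286 and 481 counts with IL-3, against 2061 and 2416 without. Both libraries without IL-3 were high and the groups did not overlap. The log2 fold change was 2.67 (standard error 0.48), with an adjusted p of 0.692 in edgeR and 0.000228 in DESeq2.

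Ciita, the co-activator of MHC class II genes, was low throughout, at 322 and 74 counts with IL-3, against 23 and 48 without. The fitted log2 value of -2.28 (standard error 0.86, adjusted p = 0.841 in edgeR) shrank to -1.04 without Abl1ko/IL3+ replicate 1 and grew to -2.92 without replicate 2. Trp53, whose product p53 meets NF-Y at cell cycle promoters, had 13513 and 21947 counts with IL-3, against 8273 and 8852 without (log2 fold change -0.91, adjusted p = 0.855 in edgeR, and -0.36 without Abl1ko/IL3+ replicate 2). Srebf2, the sterol-sensing factor that pairs with NF-Y at cholesterol genes, stood at -0.75 (adjusted p = 0.865 in edgeR), and Usf2 at -0.03.

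The 5 histone-fold relatives of Nfyb and Nfyc had a median of -0.24, with 1 above 0 and 4 below. Pole4, a small subunit of DNA polymerase epsilon, had 2640 and 2097 counts with IL-3, against 2737 and 3014 without, which was higher in CPM without overlap (log2 fold change 0.46, adjusted p = 0.898 in edgeR). Drap1 and Pole3 stood at -0.24 and -0.25. Both signs turned without Abl1ko/IL3+ replicate 2, to 0.70 and 0.72, and the median then was 0.42. Without Abl1ko/IL3+ replicate 1 the median was -0.79.

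Of 14 cell cycle targets, 3 lay above 0 and 11 below, with a median of -0.16, and 4 (28.6%) were lower without overlap while 0 were higher, beside 17.9% and 19.4% of all tested genes. Ccnb1, which encodes cyclin B1, had 5530 and 5125 counts with IL-3, against 3259 and 3318 without (log2 fold change -0.52, standard error 0.31, adjusted p = 0.884 in edgeR). Plk1, a mitotic kinase gene, stood at -0.89 and Bub1b, of the spindle checkpoint, at -0.76. The groups of Plk1 all but touched, at 54.03 CPM in Abl1ko/IL3+ replicate 1 and 54.01 CPM in Abl1ko/IL3- replicate 1. The checkpoint kinase gene Chek2 stood at -0.22. Ccnb2 at -0.36 and Top2a at -0.08 overlapped between groups. Without Abl1ko/IL3+ replicate 2 the median of the list turned to 0.49, Plk1 moved to -0.10 and Ccnb2 to 0.57, so the direction of this list rested on that library.

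Lipid synthesis targets held the lowest listed values. Hmgcs1, the gene of cytosolic HMG-CoA synthase early in the cholesterol pathway, had 2760 and 2613 counts with IL-3, against 160 and 452 without. The libraries without IL-3 were both far below those with it. Its log2 fold change was -3.03 (standard error 0.55), with an adjusted p of 0.692 in edgeR and 6.43e-05 in DESeq2. It was -2.54 without Abl1ko/IL3- replicate 1 and -3.76 without Abl1ko/IL3- replicate 2. The sequence before its start site is shown because it carries several CCAAT boxes (chr13:119690101-119690350, plus strand, GRCm38.p6, same marking).
Hmgcs1: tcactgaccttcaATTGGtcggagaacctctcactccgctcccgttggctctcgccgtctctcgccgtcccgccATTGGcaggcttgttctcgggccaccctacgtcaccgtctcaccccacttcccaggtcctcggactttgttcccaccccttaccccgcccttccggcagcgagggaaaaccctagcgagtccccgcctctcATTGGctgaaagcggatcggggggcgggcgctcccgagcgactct

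This stretch held 3 copies, and the 300-base window 4. At least 3 copies were found in 3.37% of all windows, but Hmgcs1 was shown for its copies, so this share is no independent result. The window of Creb1, higher without IL-3, held 0 copies, and that of Top2a, at -0.08, held 6. A link between copies and change was not tested.

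Fdft1, the gene of squalene synthase, had 1447 and 4673 counts with IL-3, against 494 and 537 without. Its log2 fold change was -2.47 (standard error 0.71), with an adjusted p of 0.729 in edgeR and 0.0445 in DESeq2, and it was -1.19 without Abl1ko/IL3+ replicate 2 and -3.12 without replicate 1. The rest of the pathway was nearer to 0. Fdps, farnesyl diphosphate synthase, stood at -0.72 and Sqle, squalene epoxidase, at -0.17, with overlapping groups, and without Abl1ko/IL3+ replicate 2 they turned to 0.60 and 0.19. Of the 7 tested genes of the list, 6 lay below 0, and the median was -0.37, which became -0.74 without Abl1ko/IL3- replicate 1 and -0.064 without Abl1ko/IL3- replicate 2. Scd1 had 6 and 4 counts with IL-3, against 0 and 0 without and was not tested.

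ER chaperone and stress targets went in both directions, with 4 above 0 and 5 below among 9. Ddit3, the stress-induced factor also called CHOP, had 1223 and 1598 counts with IL-3, against 2747 and 3541 without (log2 fold change 1.29, standard error 0.37, adjusted p = 0.727 in edgeR). Hsp90b1, the chaperone GRP94, had 45420 and 37599 counts with IL-3, against 66890 and 67282 without (0.87 on the log2 scale, adjusted p = 0.841 in edgeR). Both were higher without overlap, as was Pdia3, a disulfide isomerase gene, at 0.49. Calr, the gene of calreticulin, was lower without overlap at -0.52. Of the 9, 3 (33.3%) were higher in this way and 2 (22.2%) lower, beside 19.4% and 17.9% of all tested genes. Hspa5, the chaperone BiP and a classic CCAAT-dependent gene, had 30121 and 24372 counts with IL-3 but 4473 and 45665 without, so the libraries without IL-3 fell on either side. The list median of -0.06 became 0.28 without Abl1ko/IL3+ replicate 1 and 0.42 without Abl1ko/IL3- replicate 1.

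**Figure D5:**
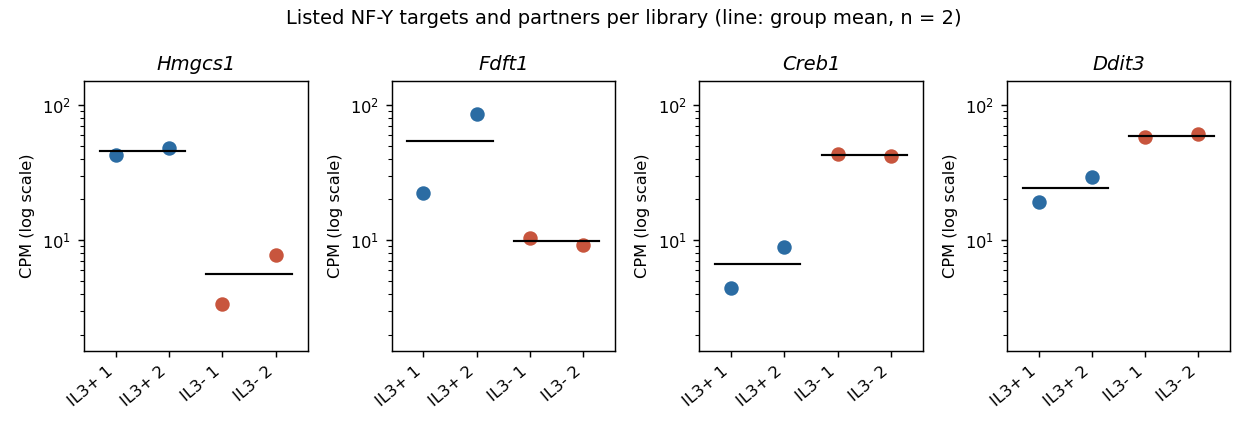
TMM-normalized CPM (log axis) of Hmgcs1, Fdft1, Creb1 and Ddit3 in each library, with a line at each group mean (n = 2). Hmgcs1 goes from 42.8 and 48.1 CPM with IL-3 to 3.34 and 7.79 without, and Creb1 from 4.44 and 8.85 to 43.1 and 41.6.

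Of 6 MHC class II targets, 4 were tested, and the others, H2-Ab1 and H2-Eb1, had at most 15 counts in any library. H2-DMb1, which helps load peptides, had 876 and 100 counts with IL-3, against 82 and 69 without. Its log2 fold change of -2.41 (adjusted p = 0.854 in edgeR) was -0.33 without Abl1ko/IL3+ replicate 1 and -3.22 without replicate 2. H2-DMa stood at -1.08 and Cd74, the invariant chain gene, at 0.87, turning to -0.97 without Abl1ko/IL3- replicate 2. The list median of -0.17 ran from -0.97 to 1.27 over the fits that left out a library. Each of these fits was filtered anew, so the genes behind the median changed, and both ends were the values of Cd74 itself. Of the stem cell targets only Notch1 was tested, with 2646 and 905 counts with IL-3, against 1310 and 1995 without, and Hoxb4 and Lef1 were not analysed here.

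CCAAT was counted in the windows of the listed targets as well. Among genes with a window, 10 of 12 cell cycle targets and 7 of 8 ER targets held at least 1 copy, beside 41.1% of 27025 mouse genes. So did 8 of 13 partners, 3 of 3 lipid synthesis targets, 4 of 4 MHC class II targets, 0 of 4 histone-fold relatives and 0 of 3 stem cell targets. Lists with so few windows give no firm share. The target lists were drawn from genes known for CCAAT boxes, so these shares are no independent result. Hspa5, low in 1 library without IL-3 and high in the other, held 4 copies, and Hsp90b1 held 6.

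The genes most like Nfya over the 4 libraries were found by the Euclidean distance of centred log2 CPM. The nearest, Moap1, an apoptosis regulator gene, had 44 and 60 counts with IL-3, against 0 and 0 without (distance 0.222). Next came Gm47769 (0.709), 2310039L15Rik (0.720) and Sox5 (0.926), each at 0 counts in both libraries without IL-3 and at 28 to 92 with it. These 4 genes passed the filter only through their counts with IL-3, and their distance from Nfya depends on the prior count of 2 added before taking logs, so their likeness is a description of this scale alone. Tnfaip2, the fifth at a distance of 0.931, was the abundant one, with 11730 and 14591 counts with IL-3, against 441 and 982 without. The 3 genes nearest to Nfyb were Rarg, Rpl21-ps15 and Pop4, at distances of 0.039 to 0.052, and those nearest to Nfyc were Dtl, E230034D01Rik and Gm15657, at 0.048 to 0.061.

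Markers of cell type also differed between the groups. Of 7 mature granulocyte markers, 4 (S100a8, S100a9, Ltf and Camp) were higher in both libraries without IL-3, beside 19.4% of all tested genes, and the other 3 (Ngp, Lcn2 and Cebpe) overlapped between groups. The summed level overlapped too, at 1203 and 519 CPM with IL-3 and 1109 and 5627 without. The 8 myeloid precursor markers summed to 2333 and 2075 CPM with IL-3 and 1280 and 888 without, and Kit had 0 to 4 counts. Mpo made up most of these sums. Of the 8, 2 were lower without overlap, beside 17.9% of all tested genes, and 0 were higher. Erythroid markers summed to 386 and 7379 CPM against 3601 and 1809, mast cell and basophil markers to 528 and 80.9 against 140 and 106, and macrophage markers to 240 and 52.2 against 76.3 and 178. The T-lineage markers Cd3g and Cd3d, at most 5.17 CPM together, were higher in both libraries without IL-3. The part of these differences in the values of Nfya and of the listed genes was not tested.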

How the data were processed

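RNA-seq libraries of 32Dcl3-Abl1ko cells with and without IL-3 were analysed, grouped by the labels. The authors aligned reads to GRCm38 with Rsubread, counted them with featureCounts and deposited raw counts per gene. The authors also deposited FPKM values, whose tool is not given in the sources used here. The submitters' processing notes list STAR, Cuffdiff and mm10 without roles. Strand setting and versions are not given in the sources used here.

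Counts were filtered with filterByExpr, scaled by TMM and tested with edgeR 4.0.16 in R 4.3.3 (quasi-likelihood F test, two-sided, Benjamini-Hochberg over 16535 genes, threshold 0.05). Standard errors were the log2 fold change over the root of F. Alternatives were DESeq2 1.42.0, limma 3.58.1 on log2(FPKM + 1) and log2(FPKM + 0.1), library size only, other filters, replicate blocks and leaving out each library. Steps were tested on simulated data. Libraries differed by more than sampling noise. Total counts of 48953174 to 60382588 set the depth, and with 2 libraries a group the spread limits precision more than depth does.

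Members and lists were chosen with earlier results of these data known. Named were the members, genes within 100 kb, the 5 or 3 genes most alike (centred log2 CPM, prior count 2), and per list up to 4 genes whose groups did not overlap and the 2 of highest FPKM. Hspa5, Scd1, S100a8, S100a9, Ltf, Camp, Ngp, Lcn2, Cebpe, H2-Ab1 and H2-Eb1 were named after their values were seen. So were the motif counts of single genes and the myeloid precursor markers Elane, Prtn3, Ctsg, Csf3r, Cebpa and Spi1. Gene bounds are those of the files, which matched GENCODE M21 for the members. Windows were found for 62.4% of tested genes, under the 80% needed, so CCAAT content was not compared over all tested genes. A listed cell type marker is not reported here.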

Additional observations from a re-analysis of the deposited data

How the results depend on the processing

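Nfya was lower without IL-3 under every alternative run, with a log2 difference of -3.12 by limma on log2(FPKM + 1), where the pseudocount shrinks low values, -4.51 on log2(FPKM + 0.1), and -5.01 to -4.60 without each library. Without each library Nfyb gave -0.24 to -0.15 and Nfyc -0.17 to 0.41, its sign turning to -0.085 and -0.17 without replicate 1 of Abl1ko/IL3+ and of Abl1ko/IL3-. The cause was not tested. The subunit ratios ran from -4.80 to -4.48 (Nfya over Nfyb), -5.24 to -4.70 (Nfya over Nfyc) and -0.65 to -0.012 (Nfyb over Nfyc).

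Over all genes, edgeR called 0, and DESeq2 called 271, of which 3 were listed genes. Leaving out a library gave 0 to 22 calls over all genes, 22 without Abl1ko/IL3- replicate 1 and 1 without Abl1ko/IL3- replicate 2, and 0 to 0 for listed genes. A group left with 1 library was assumed to vary like the other. Library size only, both other filters and limma on either FPKM scale called 0 genes.

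The replicate numbers are shared by the groups, but same-numbered libraries did not deviate together (r = -0.194 over 16535 genes). With 2 libraries a group, this cannot tell whether they share more than a number. With the replicate block, 0 genes were called, 548 had an unadjusted p under 0.05, and Nfya, Nfyb and Nfyc gave -4.81, -0.20 and 0.13. The crossed pairing, chosen after seeing the data, also called 0 genes.

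Among the genes named from the lists by the rule, directions turned for 9. Neighbours, the genes most alike and genes named after their values were seen were not followed one by one in this way. Usf2 gave 0.034 when only library size was used, 0.0245 with the replicate block, 0.0246 with the crossed one, and 0.0407 and 0.043 by limma on the larger and smaller pseudocount, and Top2a gave 0.0027 and 0.0033 by limma. Without a library, Usf2 ran from -0.39 to 0.47, Drap1 from -0.79 to 0.70, Pole3 from -0.81 to 0.72, Ccnb2 from -0.91 to 0.57, Top2a from -0.43 to 0.41, Fdps from -1.39 to 0.60, Sqle from -0.47 to 0.19, Cd74 from -0.97 to 1.65 and Notch1 from -0.41 to 0.90. The median of the MHC class II list was 0.80 with no filter and -1.07 with 10 counts in every library, each over a different set of its genes. With 2 libraries a group, differences of the size seen for Nfyb and Nfyc were not detectable. Larger ones did not pass in edgeR either, as for Hmgcs1 (-3.03) and Creb1 (2.67), and 0 of all tested genes were called. A count of 0 among neighbours or listed genes is therefore no result about those genes.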
